A study of Mus musculus with 8 samples.

Results

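The angiopoietin and Tie receptor genes Angpt1, Angpt2, Tek, Tie1, Svep1 and Ptprb were examined in epididymal white adipose tissue (eWAT), the visceral fat pad beside the epididymis. They are 6 of 22180 genes measured on the array. The list was drawn up with earlier results of the same arrays known, among them the difference in Angpt1. A probe set was taken for a gene if it was annotated to that symbol alone. Where a gene had several, the probe set was chosen by its measured level, as the brightest on average across the 8 arrays. All 6 genes exceeded the level filter for testing, a mean log2 value of 3.61, and their WT means did so too.

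The study compared male Abhd15 KO mice (n = 5) with male wild type mice (WT, n = 3), all on a C57BL/6J background and normal chow, and each mouse was hybridised to its own array from 200 ng of RNA. The mice were 14 weeks old and had been fasted overnight, then given chow again for 1 h before the fat was taken. ABHD15 is a protein of the alpha/beta-hydrolase family found in adipocytes, and the comparison asks how its loss alters transcripts of refed fat. The sources used here do not say how the KO allele was made or whether it acts in all tissues. eWAT is a mixture of cells, so in such bulk RNA fewer cells of a type and less RNA per cell cannot be told apart.

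Angiopoietins are secreted ligands that control whether blood and lymphatic vessels are quiescent or remodel. Angiopoietin 1, made largely by cells around vessels, activates the receptor tyrosine kinase Tie2 (gene Tek) on endothelial cells and keeps the vessel wall tight, while angiopoietin 2, stored in and released by endothelial cells, can oppose it. Tie1 is a related receptor that associates with Tie2, Svep1 (polydom) is a large matrix protein that takes part in lymphatic vessel formation and binds Tie1, and Ptprb (VE-PTP) is an endothelial phosphatase that removes phosphate from Tie2.

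Tek, Tie1 and Svep1 lie on mouse chromosome 4, Angpt1 on chromosome 15, Angpt2 on 8 and Ptprb on 10, and none shares chromosome 11 with Abhd15 (RefSeq, GRCm38.p6). RefSeq promoters were at hand for 3 of the 6 genes. Those of both receptor genes, Tek and Tie1, are shown because the receptors are close relatives whose upstream letters differ in how often they hold GGAAG, one form of the motif of ETS factors, a family that drives many endothelial genes. The 250 bases before the start are given 5′ to 3′ on the gene's strand, for Tek at chr4:94739039-94739288 (plus strand) and for Tie1 at chr4:118489850-118490099 (minus strand). Capitals mark GGAAG on either strand.
Tek: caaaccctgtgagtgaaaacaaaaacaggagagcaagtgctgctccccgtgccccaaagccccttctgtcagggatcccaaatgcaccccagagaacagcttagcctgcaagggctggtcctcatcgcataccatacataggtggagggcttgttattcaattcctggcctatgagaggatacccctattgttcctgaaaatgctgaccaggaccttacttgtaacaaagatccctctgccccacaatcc
Tie1: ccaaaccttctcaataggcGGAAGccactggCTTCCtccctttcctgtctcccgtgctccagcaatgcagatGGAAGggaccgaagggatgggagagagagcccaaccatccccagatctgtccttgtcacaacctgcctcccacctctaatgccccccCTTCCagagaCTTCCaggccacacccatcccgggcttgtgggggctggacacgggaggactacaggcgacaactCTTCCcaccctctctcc
GGAAG occurred 6 times in the Tie1 window and 0 times in the Tek window. Among 32851 RefSeq promoter windows of this length, 64.1% held the motif and 0.344% held it at least as often as Tie1. Other forms of the motif were not counted, and a match is a description of letters, not a binding site.

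Angpt1 was the only member with a higher mean in KO, and the other 5 had lower means, against 55.2% lower among all tested genes. The direction was not settled for Svep1, at 0.52 with its second probe set and 0.14 with its probe sets averaged. Ptprb was at 0.01 without WT 2. None of the 6 passed the threshold of an adjusted p of 0.05, and neither did any of the 11090 genes tested (0%, limma). At an unadjusted p under 0.05 there were 2 of the 6 members, Angpt1 upward and Tek downward. The difference in Angpt1 was known when the members were chosen, so this count cannot be read against the share of all genes. Of all tested genes, 1164 (10.5%) had an unadjusted p under 0.05. Of these, 448 (4.04% of all) were higher and 716 (6.46%) lower in KO, so that 38.5% were higher. That share was 48.7% of 978 genes with arrays centred on their medians and 54.5% of 1154 after quantile normalization. With the replicate number as a block, 2 genes (0.018%), none of them a member, passed the adjusted threshold and 1997 had an unadjusted p under 0.05.

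The arrays were alike in overall level, with medians of 2.93 to 3.12 and pairwise r of 0.962 to 0.978 across probe sets. Abhd15 itself read 6.14 to 6.45 in WT and 5.60 to 6.27 in KO, and the array labelled KO 3 lay inside the WT range. The position of its probes relative to the deletion is unknown here, so its level is no check of the labels. Markers of the tissue were present, with the adipocyte list mean at 10.85 to 11.05 in WT and 10.61 to 11.12 in KO. Of 9 tested adipocyte markers 2 were higher and 7 lower in KO, against 55.2% lower among all tested genes. Their median log2 fold change was -0.12 against -0.03. Pparg had the smallest p (-0.47, SE 0.147, adjusted p = 0.331 in limma). Transcripts of testis and sperm were high in WT 1 (list mean 6.50), WT 2 (5.29) and KO 4 (4.91) against 3.38 to 3.98 elsewhere, and those of epididymis and seminal vesicle in WT 1 (4.06) and KO 4 (3.75) against 1.99 to 2.33 elsewhere. Immediate early genes were high in KO 1 (7.06), KO 2 (7.07) and KO 3 (6.18) against 5.04 to 5.53 elsewhere. KO 5 had the lowest array weight (0.335). The sources used here name no batch.

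Angpt1, the activating ligand, read 4.20, 4.98 and 5.03 in WT and 5.98, 6.47, 6.47, 6.29 and 5.87 in KO (log2). Every KO array lay above every WT array, with a gap of 0.84 between the groups, and WT 1 was the lowest of all. Groups did not overlap for 946 of the tested genes (8.53%), and for 332 (2.99%) KO was the higher. The group means were 4.74 ± 0.464 (SD, n = 3) and 6.22 ± 0.277 (SD, n = 5), which gives a log2 fold change of 1.48 (95% interval 0.98 to 1.98, SE 0.224), or 2.78-fold. This difference was known when the genes were chosen and is therefore a description. In the fit over all genes its unadjusted p was 6.06e-05 and its adjusted p 0.0961 (limma), 6 genes had a smaller p and 7 a larger log2 fold change.

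With array weights, where 40 genes passed (0.361%), Angpt1 was one of them (log2 fold change 1.41, adjusted p = 0.0254 in limma). Over the alternatives for Angpt1 that kept more than 1 array in each group, the adjusted p ran from 0.0254 to 0.458. The log2 fold change was 1.16 without WT 1, WT 2 and KO 4, the arrays with reproductive tract transcripts. That fit left WT 3 as the only WT array. The log2 fold change was 1.34 without KO 1, KO 2 and KO 3, the arrays with high immediate early transcripts. The fit without KO 1, KO 2 and KO 3 did not pass (adjusted p = 0.260 in limma). Because the groups of Angpt1 did not overlap, leaving out arrays could not put KO below WT.

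A second probe set of Angpt1 was much dimmer, with a mean over all arrays of 2.95 against 5.66. It read 2.40, 2.33 and 2.98 in WT and 2.74, 3.65, 3.50, 2.65 and 3.34 in KO. The groups overlapped there, since KO 1 and KO 4 lay below WT 3. Its log2 fold change was 0.60, less than the 1.48 of the brighter probe set by over 1.5 times, with group means of 2.57 and 3.18 below the filter of 3.61.

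Angpt2, the ligand that can oppose Angpt1, read 4.28, 4.64 and 4.38 in WT and 3.95, 4.49, 3.88, 4.19 and 4.14 in KO. All KO arrays but KO 2 lay below the lowest WT array, and KO 2 lay inside the WT range. The means were 4.43 ± 0.186 (SD, n = 3) and 4.13 ± 0.239 (SD, n = 5), which gives a log2 fold change of -0.30 (95% interval -0.67 to 0.06, SE 0.163, adjusted p = 0.546 in limma). The interval includes 0, and the signal was low, with a mean over all arrays of 4.24 against the filter of 3.61. Angpt4, another ligand gene of the family, lay below the filter with 2.47 to 3.58 over the 8 arrays and was not tested.

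The difference Angpt1 minus Angpt2 within each array was -0.08, 0.34 and 0.65 in WT and 2.03, 1.98, 2.59, 2.11 and 1.73 in KO. The offset between probe sets of different genes has no meaning, so only its change between arrays can be read. The groups were separated by 1.08, and their means were 0.31 ± 0.364 (SD, n = 3) and 2.09 ± 0.316 (SD, n = 5). The shift of 1.78 on the log2 scale was made up of 1.48 from Angpt1 and 0.30 from Angpt2. It is a score over genes chosen with results known and has no test. The shift was 0.91 with the dimmer Angpt1 probe set.

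**Figure D1:**
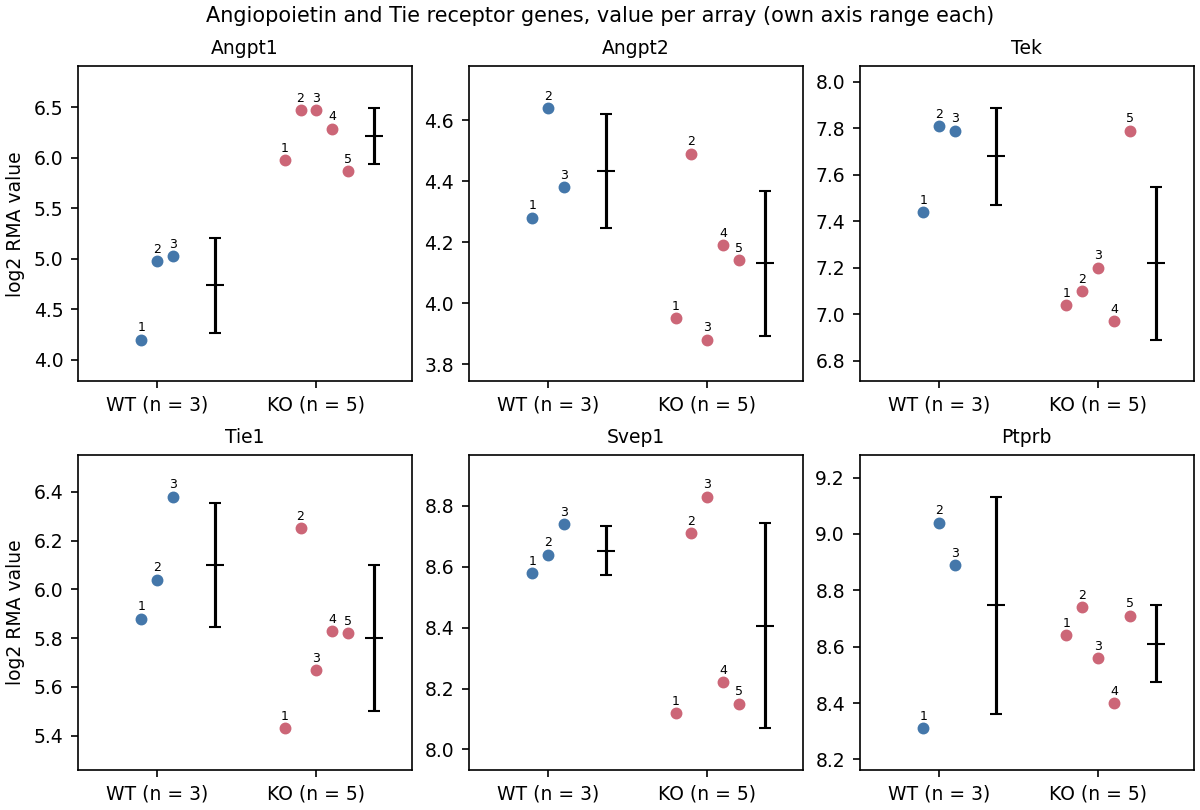
The log2 RMA value of each array for the 6 genes, WT (blue, n = 3) and KO (red, n = 5), with replicate numbers above the points and the mean ± SD as a black bar beside them; each panel has its own axis range. Angpt1 is the gene whose groups do not overlap, with a gap of 0.84, while for Tek the array KO 5 at 7.79 lies with the WT arrays.

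Tek, which encodes the receptor Tie2, read 7.44, 7.81 and 7.79 in WT and 7.04, 7.10, 7.20, 6.97 and 7.79 in KO. KO 1 to KO 4 lay below every WT array and KO 5 lay within the WT range. The means were 7.68 ± 0.209 (SD, n = 3) and 7.22 ± 0.331 (SD, n = 5), which gives a log2 fold change of -0.46 (95% interval -0.90 to -0.02, SE 0.197). Its unadjusted p was 0.0419 and its adjusted p was 0.454 (limma). At an unadjusted p under 0.05, 716 of all tested genes (6.46%) were lower in KO. Without KO 5 the log2 fold change was -0.60 (adjusted p = 0.133 in limma).

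Tie1, the companion receptor, read 5.88, 6.04 and 6.38 in WT and 5.43, 6.25, 5.67, 5.83 and 5.82 in KO. Again 4 KO arrays lay below the lowest WT array, but here the exception was KO 2. The log2 fold change was -0.30 (SE 0.192, 95% interval -0.73 to 0.13, adjusted p = 0.609 in limma). It was -0.16 without WT 3, the array with the highest value.

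Ptprb, the phosphatase that acts on Tie2, read 8.31, 9.04 and 8.89 in WT and 8.64, 8.74, 8.56, 8.40 and 8.71 in KO. All KO values fell between those of WT 1 and WT 3, so the groups overlapped fully. The log2 fold change was -0.14 (SE 0.174, 95% interval -0.52 to 0.25, adjusted p = 0.822 in limma), and it was -0.35 without WT 1 and 0.01 without WT 2.

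Svep1, the matrix protein that binds Tie1, read 8.58, 8.64 and 8.74 in WT and 8.12, 8.71, 8.83, 8.22 and 8.15 in KO. The KO arrays fell into a low set (KO 1, KO 4 and KO 5) below all WT arrays and a pair (KO 2 and KO 3) at the WT level or above it. The log2 fold change was -0.25 (SE 0.190, 95% interval -0.67 to 0.18, adjusted p = 0.683 in limma). Its second, dimmer probe set read 3.80, 3.60 and 3.55 in WT and 4.14, 5.00, 4.19, 3.79 and 3.74 in KO, a log2 fold change of 0.52 (adjusted p = 0.510 in limma). The probe sets of Svep1 thus disagree in sign, and the direction of this gene is not settled by these arrays.

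**Figure D2:**
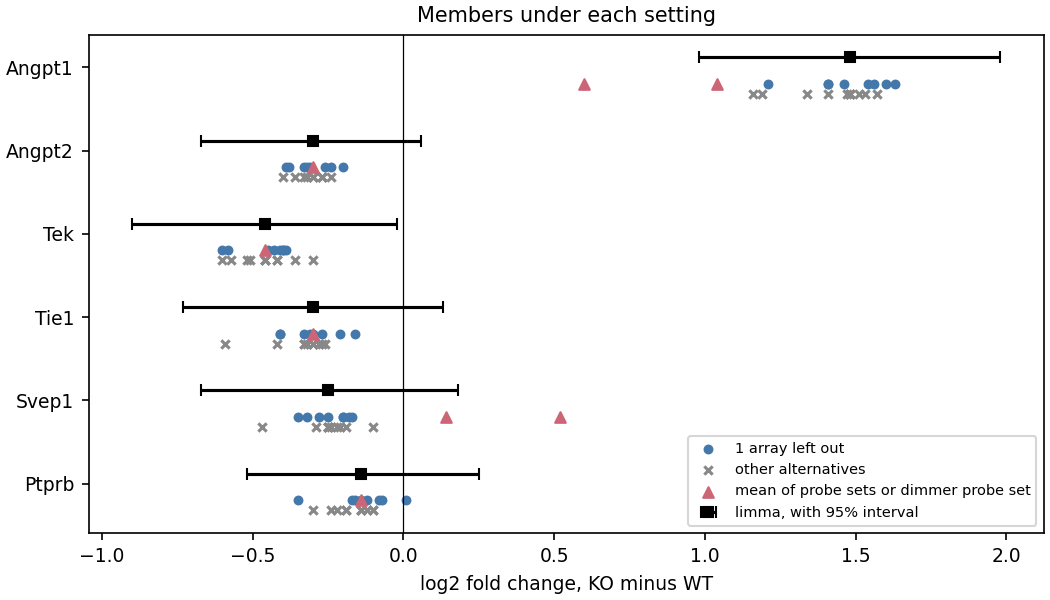
The log2 fold change, KO minus WT, of the 6 genes: black squares with 95% intervals are the limma fit, blue points leave out 1 array, grey crosses are other alternatives and red triangles average all probe sets of a gene or take the dimmer one. Angpt1 runs from 0.60 to 1.63, while Svep1 runs from -0.47 to 0.52.

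How the 6 genes varied among mice of the same genotype was described by correlation. With each value centred on its group mean, r over the 8 arrays ran from -0.14 to 0.71 among the 15 pairs and was above 0 in 13, the highest being that of Angpt2 with Tie1 (Spearman's rho 0.714). Angpt1 had an r of 0.655 with Svep1 (rho 0.762), 0.585 with Tie1 and 0.584 with Ptprb (rho 0.524 for each), 0.397 with Angpt2 (rho 0.0714) and -0.02 with Tek (rho 0.262). These values share arrays and overall array level and are given as description.

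The genes whose centred values were most like those of Angpt1 were Pnpla6 (r = 0.988, rho = 0.833), Cryz (0.982 and 0.857), Dpysl2 (0.976 and 0.833), Nudcd3 (0.969 and 0.857) and Pot1b (0.968 and 1.0). They were picked as the highest of all tested genes over only 8 arrays, which favours high values. Without WT 1 and KO 5, the arrays farthest from the median of Angpt1, r was 0.915 to 0.971. Their own log2 fold changes between genotypes were -0.27 to 0.15, against 1.48 for Angpt1. For Tek the most similar were 5031425E22Rik (r = 0.990, rho = 0.952), Rbpj (0.984 and 0.976), Mapk8ip3 (0.983 and 0.952), Cdh5 (0.979 and 0.929) and Rab36 (0.969 and 0.976). Rbpj encodes the DNA-binding partner of Notch receptors and Cdh5 is VE-cadherin, the adhesion molecule of endothelial junctions. Without KO 5 and WT 2, r with Tek was 0.886 to 0.963.

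The receptor genes were set against other endothelial transcripts, since the receptors are made mainly in those cells. Of 18 endothelial markers, all tested, 13 were lower in KO against 55.2% of all tested genes, and their median log2 fold change was -0.30 against -0.03. None passed the adjusted threshold, while 8 were lower and 1 higher at an unadjusted p under 0.05, against 6.46% and 4.04% of all tested genes. The higher one was Cldn5, a tight junction protein, named after its value was seen (0.61, SE 0.244, adjusted p = 0.430 in limma). Ecscr, an endothelial surface protein, had the smallest p (-0.92, SE 0.146, adjusted p = 0.122 in limma), followed by the VEGF receptor Kdr (-0.69, SE 0.131, adjusted p = 0.150). The mean of the list was 6.89 to 7.16 in WT and 6.73 to 6.80 in KO, so the groups did not overlap. Over the alternatives run for this list its median stayed between -0.37 and -0.26.

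Tek minus this endothelial mean was 0.55, 0.65 and 0.73 in WT and 0.25, 0.31, 0.47, 0.23 and 1.00 in KO. KO 1 to KO 4 again lay below WT, and KO 5 was the highest of all arrays, so the mean shift was -0.19 with an SD of 0.318 in KO (n = 5). It was -0.33 without KO 5 and -0.03 without KO 1, KO 2 and KO 3. Tie1 minus the same mean shifted by -0.03 (-0.14 to 0.10 with 1 array left out) and Ptprb minus it by 0.13, both with overlapping groups. The fold change of Tie1 (-0.30) equalled the median of the endothelial markers. How far the amount of endothelial RNA bears on the receptor values was not tested.

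**Figure D3:**
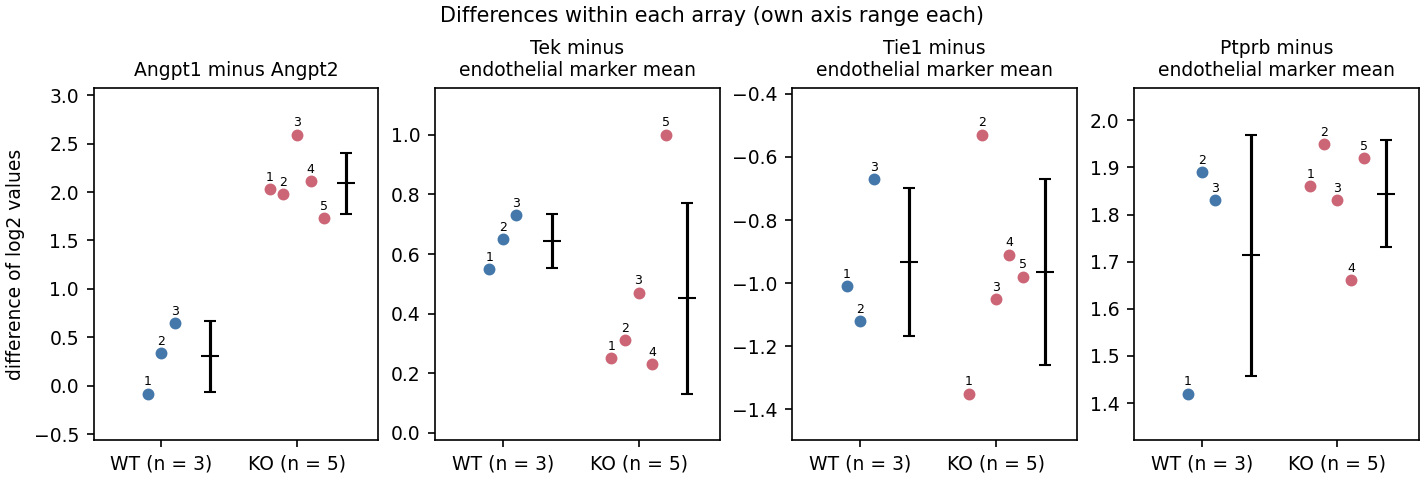
Differences of log2 values within each array for WT (blue, n = 3) and KO (red, n = 5), with the mean ± SD as a black bar; from left to right Angpt1 minus Angpt2, then Tek, Tie1 and Ptprb each minus the mean of 18 endothelial markers, each with its own axis range. Only Angpt1 minus Angpt2 separates the groups among these 4 differences, by 1.08.

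Cells around vessels are a known source of Angpt1. Of 13 pericyte and vascular smooth muscle markers, 11 were lower and 2 higher in KO, against 55.2% lower among all tested genes. Their median log2 fold change was -0.26 against -0.03, and none passed the adjusted threshold. At an unadjusted p under 0.05, 4 were lower and 0 higher, against 6.46% and 4.04% of all tested genes. The smallest p-values were those of Tagln, a smooth muscle actin-binding protein (-0.46, SE 0.114, adjusted p = 0.254 in limma), and Mcam, an adhesion molecule also present on endothelium (-0.70, SE 0.178, adjusted p = 0.270). The list mean was 6.56 to 6.87 in WT and 6.34 to 6.53 in KO, with no overlap. The median was -0.40 without WT 1 and between -0.40 and -0.18 over the alternatives run for this list.

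Markers of other cell types were also counted. Beside them, 55.2% of all tested genes were lower in KO, with a median log2 fold change of -0.03. Of 10 fibroblast and preadipocyte genes 4 were higher and 6 lower (median -0.05, list mean 7.75 to 7.93 in WT and 7.60 to 7.97 in KO). The macrophage list, which includes cells that can express Tie2, had 2 of 10 higher and 8 lower (median -0.08, list mean 7.84 to 7.95 in WT and 7.51 to 8.02 in KO). The mesothelial list had 7 of 10 higher and 3 lower (median 0.19, list mean 5.87 to 6.03 in WT and 5.70 to 6.21 in KO). Muc16, its only gene at an unadjusted p under 0.05, was lower in KO (-0.85, SE 0.21, adjusted p = 0.254 in limma). Of all tested genes 6.46% were lower at that threshold. The median of the mesothelial list was -0.15 without WT 1, WT 2 and KO 4, where WT 3 was the only WT array. Of 3 tested platelet and megakaryocyte markers, cells that also carry Angpt1, 1 was higher and 2 lower (median -0.29, list mean of 5 measured genes 4.12 to 4.32 in WT and 3.63 to 4.34 in KO). None of 8 erythroid markers had a probe set of its own. No gene of these lists passed the adjusted threshold in limma. Of 5 tested lymphatic markers, of interest since Svep1, Tie1 and Angpt2 act in lymphatic vessels, 3 were higher and 2 lower. Their median of 0.01 ran from -0.10 to 0.28 over the alternatives, the 0.28 with WT 3 as the only WT array. Reln had the smallest p (0.36, SE 0.150, adjusted p = 0.445 in limma), and Pdpn was at -0.13.

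Downstream of the receptors, the list of Tie2 signalling and its modulators held 20 genes, of which 19 were tested. Of these, 7 were higher and 12 lower in KO (63.2% lower, against 55.2% of all tested genes). Their median log2 fold change was -0.06 against -0.03 for all tested genes, and it was 0.05 without WT 2. None passed the adjusted threshold, while 3 were lower and 1 higher at an unadjusted p under 0.05, against 6.46% and 4.04% of all tested genes. Nos3, the endothelial nitric oxide synthase, read 6.36, 6.56 and 6.77 in WT and 5.66, 5.96, 6.02, 6.09 and 5.94 in KO. The KO arrays all lay below the WT arrays, and the log2 fold change was -0.63 (SE 0.144, adjusted p = 0.221 in limma).

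The adaptor Nck1 (-0.52, SE 0.172, adjusted p = 0.352 in limma), the sheddase Adam17 (-0.32, SE 0.114, adjusted p = 0.371) and Pik3ca, a catalytic subunit of phosphoinositide 3-kinase (-0.29, SE 0.143, adjusted p = 0.502), also did not overlap between the groups. With Nos3 these were 4 of 19 tested genes, all lower in KO, and 614 of all tested genes (5.54%) were separated in this direction. Cdh5, also one of the endothelial markers above, was at -0.44 (SE 0.213, adjusted p = 0.496), and like Tek it was within the WT range in KO 5 (10.49) and below it in the other KO arrays (9.62 to 9.77). Grb14, an adaptor that binds Tie2 and the insulin receptor, went the other way (0.97, SE 0.369, adjusted p = 0.405). Its values were 3.63, 4.03 and 3.83 in WT and 5.66, 5.52, 4.56, 4.00 and 4.24 in KO. The highest Grb14 values came from KO 1 and KO 2, the arrays with the highest immediate early transcripts, and whether these are linked was not tested. The transcription factor Foxo1, restrained by Tie2 signalling through Akt, was at 0.30 and Akt1 at -0.20, neither of which passed; both were named after their values were seen.

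**Figure D4:**
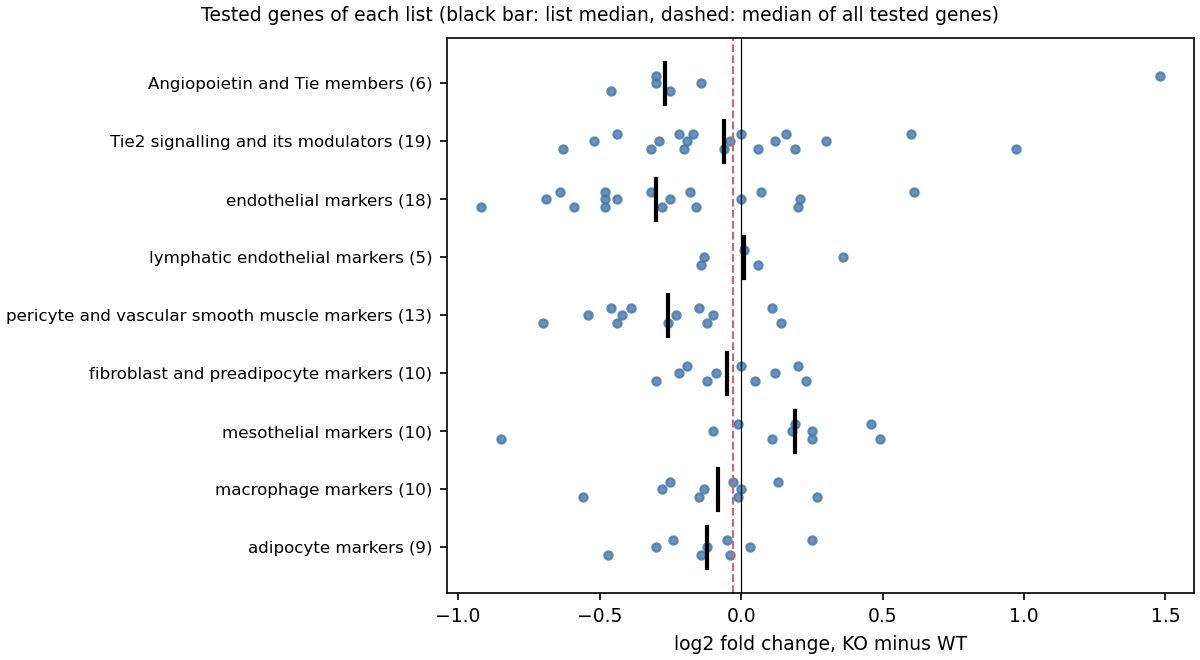
Log2 fold change, KO minus WT, of each tested gene (blue) in 9 lists, with the number tested in brackets, the list median as a black bar and the median of all tested genes (-0.03) as a dashed line. The endothelial (-0.30) and the pericyte and smooth muscle (-0.26) medians lie to the left, and Angpt1 at 1.48 lies apart from the other members.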

How the data were processed

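RNA of epididymal fat from 3 WT and 5 Abhd15 KO mice was measured on 1 Affymetrix mouse gene array each. The deposited table holds log2 values made by the authors with RMA, which corrects background, equalises the arrays and summarises the probes of a probe set. The submitters' processing notes name RMA and oligo, whereas Expression Console appears in the series' design text, and the software is therefore not settled. The sources used here give no version, array annotation or build. RMA compresses differences between dim probe sets. The number of arrays limits the precision.

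A single gene symbol was listed for 23521 of 41345 probe sets, several for 1814 and none for 16010. Symbols were updated by Entrez identifier, which matched 23328 of them, through a RefSeq table of assembly GRCm38.p6. The brightest probe set on average stood for a gene, giving 22180 genes, and the brighter 11090 of these (mean of 3.61 or more) were tested. Genotypes were compared with limma 3.58.1 (R 4.3.3, lmFit and eBayes, two-sided, Benjamini-Hochberg over all tested genes, threshold 0.05). Every p-value of a gene is limma's. The procedure was tested on simulated data with independent noise of the same spread in every array, which does not cover uneven arrays. Plots were made in Python 3.11.15 with matplotlib 3.10.9.

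Replicate numbers 1 to 3 occur in both groups, while KO 4 and KO 5 have no WT array of the same number. Arrays with the same number, each taken as its deviation from its group's mean, correlated at 0.133, 0.103 and 0.192 over the tested genes. The labels do not say what the numbers stand for. Arrays with different numbers were not compared in this way, so these small values cannot show whether the numbers pair the arrays. The fit over all genes used no pairing, and a fit with the number as a block was an alternative. In the block fit the genotype difference rests on the arrays numbered 1 to 3 alone. No pair of arrays was identical. Other alternatives were other level filters, averaged probe sets of a gene, median centring, quantile normalization, array weights, a trended robust prior and leaving out arrays. Use of the dimmer probe set was added after seeing the data.

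The members, lists, naming rule and tests were chosen with earlier results of these data known. By that rule the 6 members and Abhd15 are named, up to 6 genes of the Tie2 signalling list and up to 2 of any other list with the smallest unadjusted p, and the 5 genes most like Angpt1 and the 5 most like Tek, without predicted genes, microRNAs and small nucleolar RNAs. No list was tested as a set.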

Additional observations from a re-analysis of the deposited data

Results flagged for a closer look

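One value stood apart from its group. Tek in KO 5 was 7.79, while the other KO arrays read 6.97 to 7.20, and its gap to the nearest of them was 0.724 of the range of the group, above Dixon's critical value of 0.710 for 5 samples. The check covered the 6 genes and the 4 within-array differences in KO, 10 values in all, and chance flags about 5% of groups. KO 5 also had the lowest array weight, 0.335, and its Cdh5 value (10.49) stood at the WT level as well. Cdh5 was named above as one of the genes most like Tek. The endothelial markers Pecam1 (9.10) and Eng (9.03) and the pericyte marker Pdgfrb (7.79) likewise lay within the WT range in KO 5. In the other KO arrays they lay below it. The endothelial markers Ecscr (4.80), Icam2 (3.67) and Egfl7 (6.05) were instead lowest in KO 5. Pecam1, Eng, Pdgfrb, Icam2 and Egfl7 were named after their values were seen. The mean of the 18 endothelial markers in KO 5 was 6.80, below the 6.89 to 7.16 of WT. The part of array quality in this value was not tested.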

How the results depend on the processing

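The number of genes past the adjusted threshold was 0 in limma (1164 at an unadjusted p under 0.05). It was 40 with array weights, 3 with a trended robust prior, 2 with the replicate block and 1 without KO 1, KO 2 and KO 3, and leaving out 1 array gave 0 to 5, the 5 coming without KO 5. Angpt1 kept its direction under all 21 alternatives (0.60 to 1.63) and passed the threshold with array weights alone (1.41). Its groups did not overlap, so leaving out arrays could not turn it. Other filters and the trended prior leave its log2 fold change at 1.48. Most of these alternatives thus could not have changed the direction. With the replicate block Angpt1 was at 1.57 (adjusted p = 0.0884 in limma), and the block changed the call of none of the 6 members. The block fit compared only KO 1, KO 2 and KO 3 with WT, so it is no check over all arrays. Svep1 turned to 0.14 with the mean of its probe sets and 0.52 with the dimmer one, because that probe set has the opposite sign, and Ptprb, -0.35 to 0.01 with 1 array left out, turned to 0.01 without WT 2. Angpt2, Tek and Tie1, with 1 probe set each, kept a lower KO mean under all 20 alternatives. Other filters, averaged probe sets and the trended prior leave their fold changes as they were. Angpt1 minus Angpt2, 1.78 with all arrays, was 1.34 with the mean of probe sets, 0.91 with the dimmer probe set and 1.59 to 1.95 with 1 array left out. It was 1.43 without WT 1, WT 2 and KO 4, where WT 3 was the only WT array. Ptprb minus the endothelial mean was -0.01 to 0.22 with 1 array left out. The numbers of arrays, 3 and 5, and the low signal of Angpt2 and of the dimmer probe sets limit the precision. Background correction could not be varied, because scanner files were not used here.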
